A study of Mus musculus with 12 samples.

Results

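The response of wild-type microglia to stroke on day 3 was described by comparing the 3 WT-tFCI libraries with the 3 WT-Sham libraries, 6 of the 12 libraries of the series, across all genes counted. tFCI is transient focal cerebral ischemia, here a middle cerebral artery occlusion of 60 min, and Sham mice had the same anesthesia and exposure of the artery without occlusion. WT mice were CX3CR1wt/wt: HDAC3loxp/loxp, so that both groups carried the floxed Hdac3 alleles without Cre recombinase, and the study's methods describe male mice that received tamoxifen in young adulthood, at least a month before surgery. Cells sorted as CD45int CD11b+ were pooled from 3 to 4 hemispheres for each replicate, so a library is a mixture of animals, and RNA was amplified with a low-input SMART-Seq v4 kit and sequenced as paired ends. By the labels, replicate 1 of both groups was sequenced in batch 1 and the remaining replicates in batch 2. The other 6 libraries are miKO-Sham and miKO-tFCI, in which CX3CR1-driven, tamoxifen-inducible Cre deletes Hdac3. They entered the fit, where they bear on the estimate of the spread, the low-count filter, the scaling and the batch term. They also entered the comparison of genotypes near the end.

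Microglia are the resident macrophages of the brain. In the healthy brain they hold a surveying, homeostatic state kept up by TGF-beta and CSF1 receptor signalling, and they sense extracellular nucleotides through purine receptors. In and around an infarct they divide, take up debris of dead cells and myelin, load lipid from it, and secrete cytokines and growth factors. Cell division and chemokines are set aside here, and 40 other lists of genes are described in turn. These lists were written from general knowledge with earlier results of these data known, so their counts are a description and not independent support.

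Counts on genes ranged from 7956138 to 8860921 per WT-Sham library and from 7697864 to 8257410 per WT-tFCI library. Levels are given as CPM, counts per 1000000 after TMM scaling of library sizes, and values of single libraries stand in the order of replicates 1, 2 and 3. A gene was called higher or lower where edgeR (quasi-likelihood test, p adjusted by Benjamini-Hochberg over the 16451 genes tested) gave an adjusted p under 0.05 and the absolute log2 fold change was above 0.58. By this rule 20.9% of the genes tested were higher and 11.7% lower after tFCI, and the median log2 fold change of all genes tested was 0.02. These shares are the background against which the counts of each list should be read, and for 49.8% of the genes tested the CPM of the groups did not overlap. A standard error given here is the absolute log2 fold change over the square root of the F statistic of the quasi-likelihood test. It was derived from the test and not estimated on its own, so genes near 0 counts in a group can look more precise than they are. The library kit does not mark strand, and the named genes Acp2, Acsl1, Anxa2, Bhlhe40, Ch25h, Col4a1, Coro1a, Ctsb, Cx3cr1, Ddit3, Dusp1, Elmo1, Evl, Fn1, Ftl1, G6pdx, Hspa1a, Hspa1l, Hvcn1, Ifi30, Il1b, Jun, Jund, Lcp1, Lipe, Ltc4s, Mgll, Mt2, Ndrg1, Nlrc5, Optn, P2ry12, Ppp1r15a, Ptger4, Ptgs1, Sqstm1, Tbxas1, Tef, Timp3 and mt-Co1 lie across from another counted gene, on the opposite strand, so that their values are uncertain. Nothing in the labels ties the libraries of a group to known animals, so the p-values measure the spread between these pools.

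The sorted cells carried microglial RNA in both groups. Of the antigens named for the sort, the CD45 gene Ptprc was at 444 ± 45.6 CPM in WT-Sham and 456 ± 48.5 CPM in WT-tFCI, the CD11b gene Itgam at 399 ± 92.1 and 506 ± 50.1 CPM, and neither was called. Itgax, which encodes CD11c, rose from 4.997 ± 2.03 to 18.5 ± 3.22 CPM (SD, n = 3 each, log2 fold change 1.90, standard error 0.23, adjusted p = 1.98e-05), and Ly6g did not pass the filter on low counts. The 11 microglia markers summed to 29818 to 38976 CPM in WT-Sham and 21435 to 23799 CPM in WT-tFCI, against 54.4 to 130.1 CPM in WT-Sham and 461 to 850.5 CPM in WT-tFCI for 14 monocyte and macrophage markers, of which 7 of 13 tested were higher. Markers of cells outside the gate were present at low level, and many were called higher: 7 of 10 astrocyte markers, 9 of 11 oligodendrocyte markers and 10 of 12 endothelial and mural markers. Astrocyte markers summed to 202, 183 and 192 CPM in WT-Sham and 340, 196 and 184 CPM in WT-tFCI. Most of this sum in WT-Sham was Slc1a3, named after its values were seen. Slc1a3 had 184, 174 and 180 CPM in WT-Sham and 99.6, 120 and 114 CPM in WT-tFCI, so the sum hides the rise of other members. Oligodendrocyte markers summed to 193, 206 and 221 CPM in WT-Sham and 311, 236 and 209 CPM in WT-tFCI. Their median log2 fold change of 3.59 was 1.97 with 5 members at or under 3 counts per WT-Sham library at their bounds. Most of their sum in WT-Sham was Cnp and Mag, named in the same way, which hides the rise of other members. Cnp had 100, 122 and 129 CPM in WT-Sham and 115, 101 and 96.7 CPM in WT-tFCI. Mag had 56.0, 54.4 and 56.5 CPM in WT-Sham and 35.8, 36.7 and 35.5 CPM in WT-tFCI. The endothelial and mural markers summed to 37.5, 26.9 and 28.3 CPM in WT-Sham and to 301, 99.2 and 93.7 CPM in WT-tFCI, so that WT-tFCI replicate 1 stood apart, as it did for monocyte markers (850.5, 461 and 519.7 CPM). This replicate was also the highest WT-tFCI library for astrocyte, oligodendrocyte, dendritic cell, B cell, T and NK cell, neuron and erythrocyte markers. It was not the highest for border-associated macrophage or neutrophil markers. Border-associated macrophage markers summed to 120.2 to 152 CPM in WT-Sham and 221 to 314 CPM in WT-tFCI, and of the T and NK cell markers Cd3e and Ncr1 had 0 counts in all 6 libraries. Neutrophil markers summed to 1439, 648 and 640.4 CPM in WT-Sham and 596, 575 and 622 CPM in WT-tFCI, so that WT-Sham replicate 1 stood apart, with a list median of -0.96 within batch 1 and 1.67 within batch 2. More than all other neutrophil markers together, except in WT-Sham replicate 1, came from Csf3r, the receptor gene for granulocyte colony-stimulating factor, named after its values were seen, at 544, 566 and 587 CPM in WT-Sham and 342, 338 and 375 CPM in WT-tFCI. Without Csf3r the neutrophil markers summed to 896, 84.2 and 55.0 CPM in WT-Sham and 255, 237 and 248 CPM in WT-tFCI. Dendritic cell markers summed to 26.6 to 33.1 CPM in WT-Sham and 27.4 to 129 CPM in WT-tFCI, B cell markers to 474 to 593 CPM in WT-Sham and 285 to 354 CPM in WT-tFCI, T and NK cell markers to 24.4 to 44.4 CPM in WT-Sham and 12.2 to 31.02 CPM in WT-tFCI, neuron markers to 5.03 to 6.04 CPM in WT-Sham and 6.20 to 18.3 CPM in WT-tFCI and erythrocyte markers to 4.402 to 17.8 CPM in WT-Sham and 6.20 to 31.9 CPM in WT-tFCI, with 2 of 9, 1 of 6, 0 of 5, 0 of 6 and 0 of 5 tested markers called higher. Fewer cells of a type and less RNA per cell cannot be told apart in such bulk samples.

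**Figure D1:**
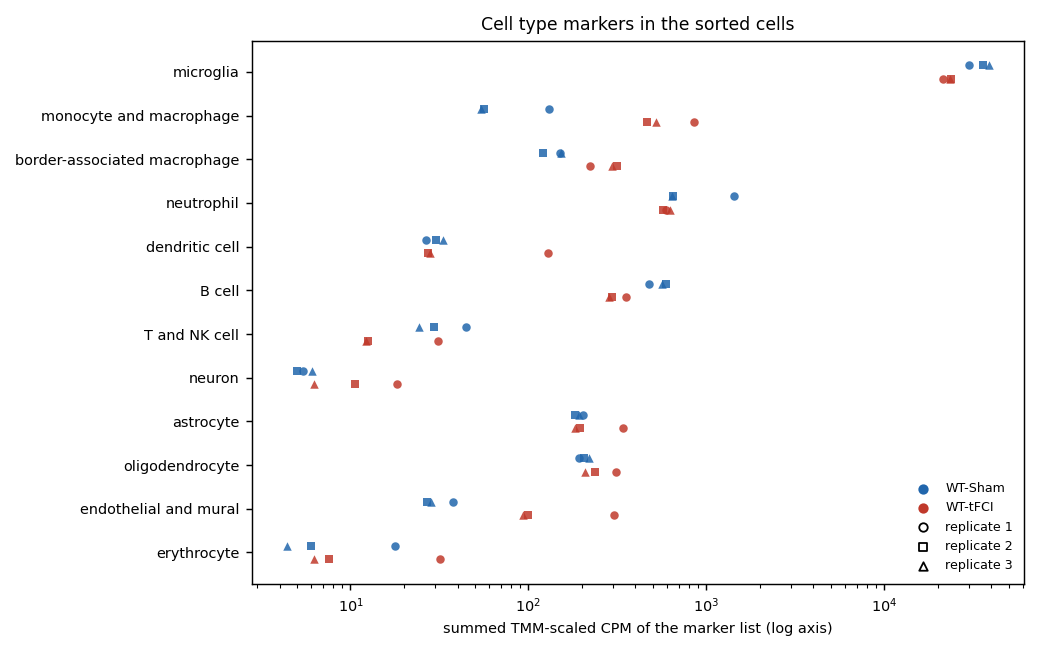
Summed TMM-scaled CPM of each list of cell type markers (log axis) in the 3 WT-Sham (blue) and 3 WT-tFCI (red) libraries, with a symbol for each replicate number. Microglia markers sum to 21435 CPM or more in every library, far above every other list. WT-tFCI replicate 1 (circle) lies to the right of the other WT-tFCI libraries for most other lists, among them the endothelial, monocyte, astrocyte and oligodendrocyte lists. It does not for the border-associated macrophage and neutrophil lists.

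**Figure D2:**
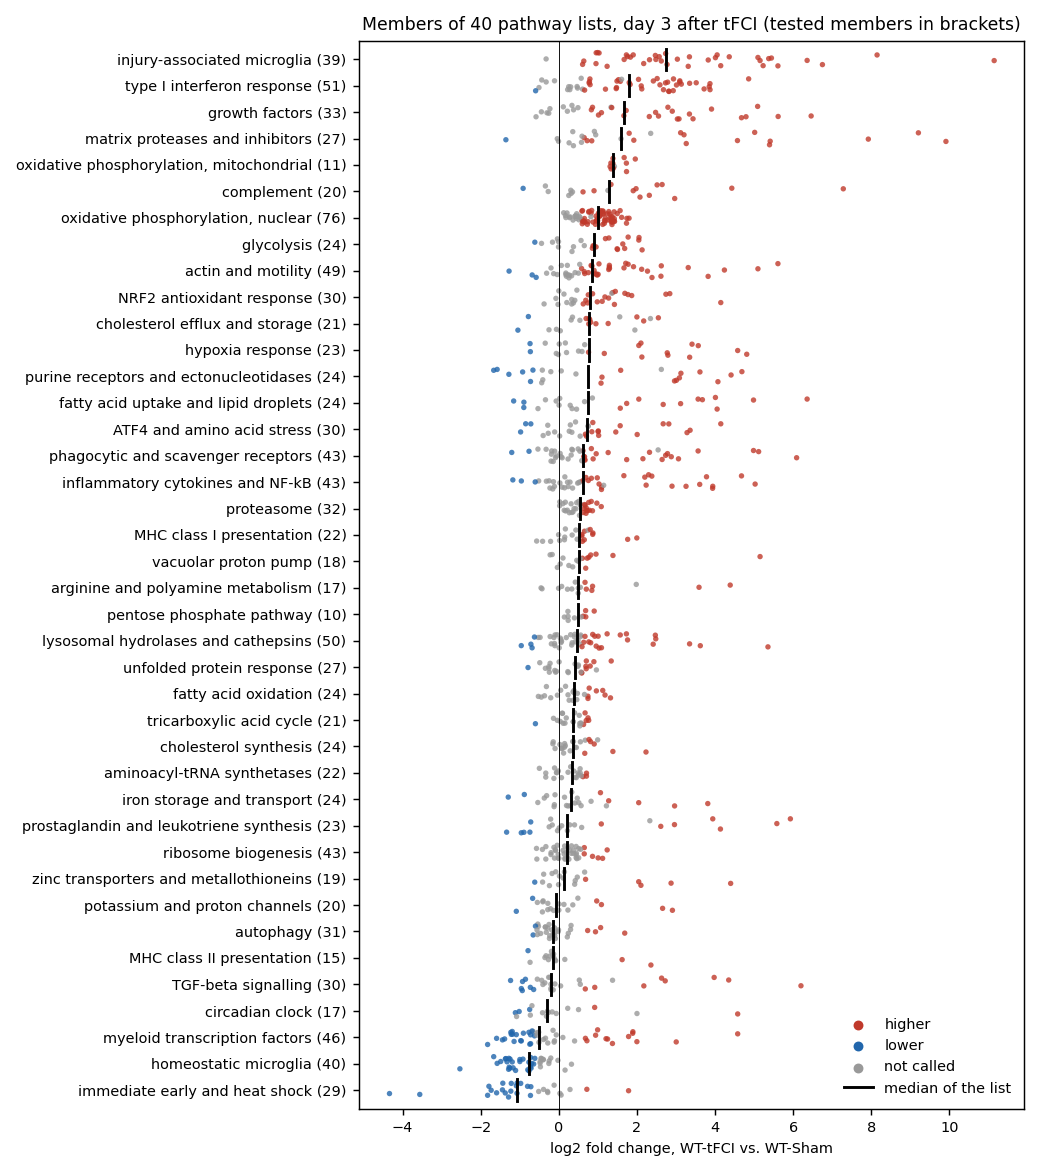
Log2 fold change in WT-tFCI vs. WT-Sham of every tested member of the 40 lists, ordered by the median of the list (black bar). Red points were called higher, blue points lower and grey points were not called; injury-associated and interferon genes lie at the upper end and immediate early, heat shock and homeostatic genes at the lower end.

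Homeostatic genes fell in most cases. Of the 40 genes of the homeostatic microglia list, 27 were called lower and 0 higher, with a median log2 fold change of -0.76 (-0.93 within batch 1 and -0.72 within batch 2). P2ry12 (chromosome 3, 59216272 to 59262871), the ADP receptor that directs microglial processes to injury, was at 2358, 3059 and 3399 CPM in WT-Sham and 997, 903 and 825 CPM in WT-tFCI. Every WT-tFCI library of P2ry12 lay below every WT-Sham library (log2 fold change -1.67, standard error 0.21, adjusted p = 2.79e-05). P2ry13, a related ADP receptor, fell from 1081 ± 365 to 346 ± 32.96 CPM (SD, n = 3 each, log2 fold change -1.58, standard error 0.25, adjusted p = 2.16e-04). Slc2a5, a fructose transporter that in brain marks microglia, fell from 705 ± 62.3 to 250.1 ± 8.58 CPM (SD, n = 3 each, log2 fold change -1.49, standard error 0.20, adjusted p = 4.03e-05). The uroplakin gene Upk1b (chromosome 16, 38773184 to 38800328) was among the 10 largest decreases by the naming rule, from 165, 186 and 219 to 38.1, 30.5 and 29.9 CPM (log2 fold change -2.53, standard error 0.23, adjusted p = 1.13e-06). Tmem119 and Cx3cr1, a microglial surface protein and the fractalkine receptor, were chosen after their values were seen. Tmem119 fell by 1.29 and Cx3cr1 by 1.33 on the log2 scale (adjusted p = 2.01e-04 and 3.99e-05). Not every abundant microglial gene was lower by the rule. The matricellular gene Sparc had 4892, 3867 and 3758 CPM in WT-Sham and 4098, 3216 and 3171 CPM in WT-tFCI (log2 fold change -0.26, adjusted p = 0.234).

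Injury-associated genes rose in nearly all cases. This list holds genes that microglia are known to turn on in demyelination, neurodegeneration and development, and 38 of its 39 tested members were higher, with a median log2 fold change of 2.73 (2.27 within batch 1 and 2.87 within batch 2). With the member at or under 3 counts in every WT-Sham library placed at its lower bound, the median was 2.62. Gpnmb (chromosome 6, 49036546 to 49070929), a membrane glycoprotein of lipid-laden phagocytes, was at 0, 0.112 and 0.513 CPM in WT-Sham and at 173, 33.01 and 36.9 CPM in WT-tFCI (log2 fold change 8.15, standard error 0.60, adjusted p = 1.48e-07). Replicate 1 of WT-tFCI thus carried more Gpnmb than replicates 2 and 3, and the log2 difference was 9.5 within batch 1 and 6.09 within batch 2. Ch25h (chromosome 19, 34473778 to 34475164), which makes 25-hydroxycholesterol, went from 0.601, 0.224 and 0.513 to 43.3, 50.4 and 54.6 CPM (log2 fold change 6.75, standard error 0.29, adjusted p = 1.06e-09). Fabp5, a fatty acid carrier, went from 3.13, 0.672 and 0.513 to 206, 78.7 and 69.3 CPM (log2 fold change 6.36, standard error 0.43, adjusted p = 6.22e-08). Spp1, which encodes osteopontin, showed the largest increase by the naming rule, from 3.13, 1.34 and 3.49 to 4927, 6827 and 6336 CPM (log2 fold change 11.14, adjusted p = 2.99e-08). The 1 tested member that was not called was Trem2, the lipid-sensing receptor that is known to be required for much of this state in other settings, at 1765, 1353 and 1202 CPM in WT-Sham and 1159, 1155 and 1114 CPM in WT-tFCI (log2 fold change -0.33, adjusted p = 0.112).

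The 10 largest increases among called genes whose groups did not overlap held, beside Spp1, Gpnmb and Ch25h, the genes Timp1, Fn1, Dcn, Gfap, Col4a1, Ecm1 and Cd5l. Timp1, an inhibitor of matrix proteases, had 0.481, 0 and 0 CPM in WT-Sham and 88.9, 16.7 and 20.96 CPM in WT-tFCI (log2 fold change 7.92, standard error 0.38, adjusted p = 2.70e-09). Fn1, which encodes fibronectin, went from 3.25, 2.35 and 0.205 to 446, 296 and 365 CPM (log2 fold change 7.65, standard error 0.64, adjusted p = 4.59e-07), and Cd5l, a secreted macrophage protein, from 0, 1.68 and 1.03 to 60.8, 89.4 and 93.8 CPM (log2 fold change 6.52, standard error 0.39, adjusted p = 1.67e-08). Dcn, a proteoglycan of fibroblasts, had 376, 96.6 and 87.97 CPM in WT-tFCI, Col4a1, a basement membrane collagen, had 78.99, 22.4 and 20.8 CPM, and the astrocyte gene Gfap had 79.4, 29.1 and 30.6 CPM. For Dcn, Col4a1, Gfap and Timp1, replicate 1 of WT-tFCI was the highest library, as it was for the summed endothelial and monocyte markers, whose part in these results was not tested. Fn1 is itself on the monocyte list. The 10 largest decreases chosen in the same way were Hspa1b, Gpr165, Hspa1a, Hspa1l, Upk1b, Tlr5, 3222401L13Rik, Sema4b, Gprasp2 and Tmem204. Gpr165, an orphan receptor, went from 6.37, 15.1 and 17.6 to 1.08, 1.04 and 0.853 CPM (log2 fold change -3.63, standard error 0.60, adjusted p = 2.81e-04), and Sema4b, a membrane semaphorin, from 19.95, 17.5 and 11.7 to 4.67, 2.65 and 2.92 CPM (log2 fold change -2.26, standard error 0.36, adjusted p = 2.00e-04). Each WT-tFCI library of both genes lay below each WT-Sham library.

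Some genes of lipid uptake and storage rose, and the lipase genes Mgll and Lipe were called lower, with uncertain values. Phagocytes that take up membrane debris store its fatty acids as triglyceride and its cholesterol as esters in lipid droplets, and export cholesterol to apolipoprotein E. Of the 24 tested genes of fatty acid uptake and lipid droplets, 11 were higher and 3 lower, with a median of 0.76 (1.32 within batch 1, 0.37 within batch 2), and 6 were higher where 10 counts were required in each library. Plin2 (chromosome 4, 86648386 to 86670060), which coats lipid droplets, was at 56.4, 47.95 and 57.5 CPM in WT-Sham and 792, 991 and 911 CPM in WT-tFCI (log2 fold change 4.05, standard error 0.35, adjusted p = 5.84e-07). Lpl, lipoprotein lipase, went from 7.81, 13.8 and 12.1 to 167, 185 and 177 CPM (log2 fold change 4.01, standard error 0.23, adjusted p = 1.41e-08). The scavenger receptor gene Msr1 went from 6.25, 2.58 and 4.10 to 85.1, 189.8 and 164 CPM (log2 fold change 4.98, standard error 0.44, adjusted p = 7.79e-07), with both libraries of batch 2 above that of batch 1. In the other direction, Mgll and Lipe, which encode monoacylglycerol lipase and hormone-sensitive lipase, fell by 1.16 and 0.89 on the log2 scale (adjusted p = 0.00356 and 1.93e-04), and Acsl1, an acyl-CoA synthetase, fell by 0.90 (adjusted p = 4.79e-04). All 3 genes lie across from another counted gene, on the opposite strand. Without genes that overlap in this way, 9 of the list were higher and 0 lower, with a median of 1.74. Pnpla2, the adipose triglyceride lipase, was at 113 ± 17.97 and 89.3 ± 4.14 CPM (SD, n = 3 each) and was not called (log2 fold change -0.34).

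Of the genes of cholesterol efflux and storage 10 of 21 were higher and 2 lower (median 0.77). In the cholesterol synthesis list 6 of 24 were higher and 0 lower (median 0.36), a share near the background. Apoe (chromosome 7, 19696109 to 19699188), already abundant, was at 1512, 978 and 897 CPM in WT-Sham and 4658, 5386 and 5129 CPM in WT-tFCI (log2 fold change 2.17, standard error 0.48, adjusted p = 0.00269). Nceh1, a cholesteryl ester hydrolase, went from 10.9 ± 3.23 to 63.9 ± 2.35 CPM (SD, n = 3 each, log2 fold change 2.55, standard error 0.20, adjusted p = 2.22e-07), and the HDL receptor gene Scarb1 from 39.4 ± 8.55 to 93.7 ± 8.75 CPM (log2 fold change 1.26, standard error 0.16, adjusted p = 3.49e-05). Abca1, the main cholesterol exporter, had 419, 314 and 284 CPM in WT-Sham and 459, 499.8 and 511 CPM in WT-tFCI and was not called (adjusted p = 0.0864). Its log2 difference was 0.13 within batch 1 and 0.76 within batch 2, and in the libraries of batch 2 alone it was called. Cyp27a1, a sterol hydroxylase, fell from 83.6 ± 10.2 to 40.3 ± 4.38 CPM (log2 fold change -1.05, standard error 0.16, adjusted p = 1.78e-04). In fatty acid oxidation 7 of 24 genes were higher and 0 lower, among them Cpt1a, which admits fatty acids to mitochondria, and Acadl and Acaa2 of the oxidation cycle itself. They rose by 1.12, 1.18 and 1.32 on the log2 scale (adjusted p = 9.94e-06, 5.63e-06 and 5.76e-05).

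Lysosomal genes rose in part. Of 50 hydrolases, cathepsins and membrane proteins, 21 were higher and 4 lower, with a median of 0.46 (0.50 within batch 1 and 0.38 within batch 2). Ctsb (chromosome 14, 63122462 to 63145923), the cysteine protease cathepsin B, was at 2749, 3284 and 3534 CPM in WT-Sham and 9166, 11918 and 11339 CPM in WT-tFCI (log2 fold change 1.76, standard error 0.20, adjusted p = 9.94e-06). Ctss, cathepsin S, had 4998 ± 157 and 4580.2 ± 236 CPM (SD, n = 3 each) and was not called (log2 fold change -0.13). Cd63, a tetraspanin of late endosomes, went from 366, 269.6 and 237 to 1411, 1731 and 1651 CPM (log2 fold change 2.47, standard error 0.20, adjusted p = 4.11e-07). Gla and Galns, which degrade glycolipids and glycosaminoglycans, rose by 2.48 and 2.42 on the log2 scale (adjusted p = 1.36e-07 and 2.04e-07). Pla2g15, the lysosomal phospholipase, fell from 599 ± 69.05 to 306 ± 14.4 CPM (log2 fold change -0.96, standard error 0.19, adjusted p = 9.54e-04), and the acid phosphatase gene Acp2 fell by 0.62 (adjusted p = 0.00338). Of the 18 subunits of the vacuolar proton pump that acidifies these organelles, 8 were higher and 0 lower (median 0.53), with Atp6v1a at 70.9, 65.9 and 70.99 CPM in WT-Sham and 179.5, 182 and 182 CPM in WT-tFCI (log2 fold change 1.39, standard error 0.16, adjusted p = 9.62e-06). The autophagy list stood below the background, with 4 of 31 genes higher and 2 lower (median -0.15), or 7 lower without WT-Sham replicate 2 and 4 lower without WT-Sham replicate 1, WT-tFCI replicate 2 or WT-tFCI replicate 3. Among its called members were the cargo receptors Optn, which rose by 1.69 on the log2 scale (adjusted p = 1.12e-04), and Sqstm1, with 0.74 (adjusted p = 0.00204).

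Receptors for debris changed unevenly. Of 43 phagocytic and scavenger receptors and their adaptors 21 were higher and 2 lower (median 0.62). Cd300lf, a receptor for phosphatidylserine and sphingolipids, was at 3.13, 1.34 and 1.64 CPM in WT-Sham and 42.97, 94.1 and 80.5 CPM in WT-tFCI (log2 fold change 5.12, standard error 0.33, adjusted p = 4.42e-08). Fcgr4, an activating Fc receptor, went from 14.2 ± 4.77 to 97.9 ± 14.3 CPM (SD, n = 3 each, log2 fold change 2.78, standard error 0.26, adjusted p = 1.30e-06), while Fcgr3 had 1656 ± 112 and 1464 ± 169 CPM (SD, n = 3 each) and was not called. Mertk, which binds apoptotic cells through bridging proteins, fell from 560.5, 563 and 609 to 295, 335 and 401 CPM (log2 fold change -0.76, standard error 0.23, adjusted p = 0.0159), a call that was lost without WT-Sham replicate 1 (log2 fold change -0.64, adjusted p = 0.0639) and without WT-tFCI replicate 2 (-0.74, adjusted p = 0.0509). Elmo1, part of the engulfment machinery that activates Rac, fell by 1.21 on the log2 scale (adjusted p = 1.08e-05), and the integrin gene Itgb5 differed by -0.11 (adjusted p = 0.644).

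In the complement list 12 of 20 tested genes were higher and 1 lower, with a median of 1.30, or 1.12 with the members at or under 3 counts per WT-Sham library at their bound. The subunits of C1q, which starts the classical pathway and is made by microglia at rest, were not among them. C1qb was at 9274, 6508 and 6012 CPM in WT-Sham and 8408, 9704 and 8873 CPM in WT-tFCI (log2 fold change 0.32, adjusted p = 0.200), and C1qc differed by 0.25 (adjusted p = 0.265). C4b rose from 9.91 ± 2.83 to 79.2 ± 17.7 CPM (SD, n = 3 each, log2 fold change 2.97, standard error 0.61, adjusted p = 0.00153), though its near-identical copy C4a makes its reads uncertain, and properdin, Cfp, rose from 5.53 ± 0.367 to 36.2 ± 19.4 CPM (log2 fold change 2.64, standard error 0.42, adjusted p = 1.93e-04). C3, the central component, was low at 7.81, 1.34 and 0.410 CPM in WT-Sham and 25.1, 9.46 and 11.9 CPM in WT-tFCI (log2 fold change 2.52, standard error 0.45, adjusted p = 5.21e-04). C5ar2, a receptor for C5a, fell by 0.91 (adjusted p = 0.00930). C3, Cfp and Serping1 were highest in WT-tFCI replicate 1, the library with the most endothelial and monocyte marker RNA, whose part in them was not tested. Where a gene needed 10 counts in each library, 5 complement genes were higher, since that filter tests fewer genes.

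Most interferon-stimulated genes rose. Type I interferons act through a receptor that activates a complex of transcription factors, and this complex binds the interferon-stimulated response element. Of 51 genes of this response 37 were higher and 1 lower, with a median log2 fold change of 1.80 (1.64 within batch 1 and 1.79 within batch 2). Ifi27l2a was at 16.9, 11.1 and 5.03 CPM in WT-Sham and 312, 317 and 289 CPM in WT-tFCI (log2 fold change 4.86, standard error 0.26, adjusted p = 7.22e-09). Rsad2 (chromosome 12, 26442746 to 26456452), which encodes the antiviral enzyme viperin, went from 1.80, 3.02 and 2.36 to 24.9, 42.2 and 39.2 CPM (log2 fold change 3.87, standard error 0.22, adjusted p = 1.24e-08). Ifitm3, a membrane protein that restricts fusion, went from 43.9, 18.7 and 10.5 to 389, 262 and 227 CPM (log2 fold change 3.72, standard error 0.27, adjusted p = 1.42e-07), with replicate 1 the highest of each group. Zbp1, a sensor of left-handed nucleic acids, went from 3.37, 2.24 and 1.64 to 25.6, 36.5 and 42.9 CPM (log2 fold change 3.85, standard error 0.27, adjusted p = 8.24e-08). Isg15, a ubiquitin-like protein, and Ifit3, which binds signalling adaptors, were chosen after their values were seen for their promoters, and rose by 3.01 and 2.73 on the log2 scale (adjusted p = 6.97e-07 and 5.01e-06). Reads that fit both Ifit3 and its close copy Ifit3b were not counted, so the level of Ifit3 is uncertain. The receptor subunit Ifnar2 differed by -0.11 (adjusted p = 0.552), and Irf8, a factor of the microglial lineage, had 727 ± 17.1 and 511 ± 22.8 CPM (SD, n = 3 each) and fell short of the fold required (log2 fold change -0.51).

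The core of the interferon-stimulated response element was searched, as GAAA followed by 2 bases of any kind and GAAA again on either strand, in RefSeq promoter windows of GRCm38.p6 that run from 250 bases before to 50 bases after a gene's start. A window was found for 39 of the 51 genes of the list, and 21 of these (53.8%) held a match, against 943 of the 27025 windows searched (3.49%). The search left out a chromosome, so that genes on it count as without a window. Of the 28 genes called higher that had a window, 17 held a match. The windows of 4 genes are shown because their levels rose as given above, with each match in capitals.
Rsad2, chr12:26456403-26456702, minus strand: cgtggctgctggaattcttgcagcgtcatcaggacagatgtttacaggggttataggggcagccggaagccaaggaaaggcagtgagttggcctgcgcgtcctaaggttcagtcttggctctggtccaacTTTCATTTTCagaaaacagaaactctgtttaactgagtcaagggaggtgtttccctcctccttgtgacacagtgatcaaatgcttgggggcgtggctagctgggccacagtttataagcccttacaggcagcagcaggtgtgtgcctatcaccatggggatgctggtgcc
Isg15, chr4:156200769-156201068, minus strand: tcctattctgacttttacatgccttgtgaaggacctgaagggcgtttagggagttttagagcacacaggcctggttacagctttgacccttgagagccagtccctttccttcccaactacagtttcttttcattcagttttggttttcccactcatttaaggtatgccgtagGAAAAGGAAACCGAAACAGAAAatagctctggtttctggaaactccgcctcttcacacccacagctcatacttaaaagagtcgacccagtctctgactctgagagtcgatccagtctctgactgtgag
Ifit3, chr19:34583279-34583578, plus strand: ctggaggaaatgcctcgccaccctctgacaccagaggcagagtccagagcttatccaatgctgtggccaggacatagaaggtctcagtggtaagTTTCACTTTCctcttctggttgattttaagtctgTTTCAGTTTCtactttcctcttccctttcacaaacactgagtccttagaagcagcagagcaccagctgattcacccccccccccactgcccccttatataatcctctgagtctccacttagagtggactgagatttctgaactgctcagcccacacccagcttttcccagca
Ifitm3, chr7:141010695-141010994, minus strand: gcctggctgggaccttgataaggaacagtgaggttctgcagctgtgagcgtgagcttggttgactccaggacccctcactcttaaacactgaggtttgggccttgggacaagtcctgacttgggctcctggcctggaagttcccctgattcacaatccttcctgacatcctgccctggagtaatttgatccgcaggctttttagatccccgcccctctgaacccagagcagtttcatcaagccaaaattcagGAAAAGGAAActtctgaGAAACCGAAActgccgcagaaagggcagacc
In Rsad2 the match begins 120 bases before the start, in Ifit3 156 and 122 bases before it, and in Isg15 78, 72 and 66 bases before it, where 3 matches overlap in a row. In Ifitm3 the matches begin at bases 3 and 20 after the start. A match is a description of the letters and does not show that a factor binds there.

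Genes of antigen presentation were taken as separate lists for class I and class II. In the MHC class I list 10 of 22 genes were higher and 0 lower (median 0.53, 0.24 within batch 1 and 0.56 within batch 2), and 6 were higher without WT-tFCI replicate 2. The transactivator gene Nlrc5 rose from 5.67 ± 1.43 to 19.1 ± 2.65 CPM (SD, n = 3 each, log2 fold change 1.76, standard error 0.28, adjusted p = 2.26e-04) and the proteasome activator gene Psme2 from 72.8 ± 20.4 to 131 ± 14.8 CPM (log2 fold change 0.87, standard error 0.19, adjusted p = 0.00204). H2-K1, a classical heavy chain, had 896, 1069 and 1013 CPM in WT-Sham and 1010.4, 1153 and 1182 CPM in WT-tFCI and was not called (log2 fold change 0.17), and H2-Q7 was higher (log2 fold change 2.00, standard error 0.36, adjusted p = 5.66e-04). Class I genes resemble each other, and reads that fit several of them were not counted, so their levels are uncertain. In the class II list 2 of 15 genes were higher and 1 lower (median -0.15, 0.58 within batch 1 and -0.57 within batch 2). Leaving out any 1 of the 6 WT libraries left 1 higher, and in batch 2 alone 1 was higher and 4 were lower. Ifi30, a thiol reductase of lysosomes, rose from 140.4, 70.2 and 74.4 to 449, 477 and 473 CPM (log2 fold change 2.36, standard error 0.23, adjusted p = 2.63e-06), and H2-Ob, part of a chaperone that holds back peptide loading, fell by 0.79 (adjusted p = 8.65e-04). The costimulatory gene Cd86 had 313 ± 34.5 and 259.7 ± 20.2 CPM (SD, n = 3 each) and was not called.

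**Figure D3:**
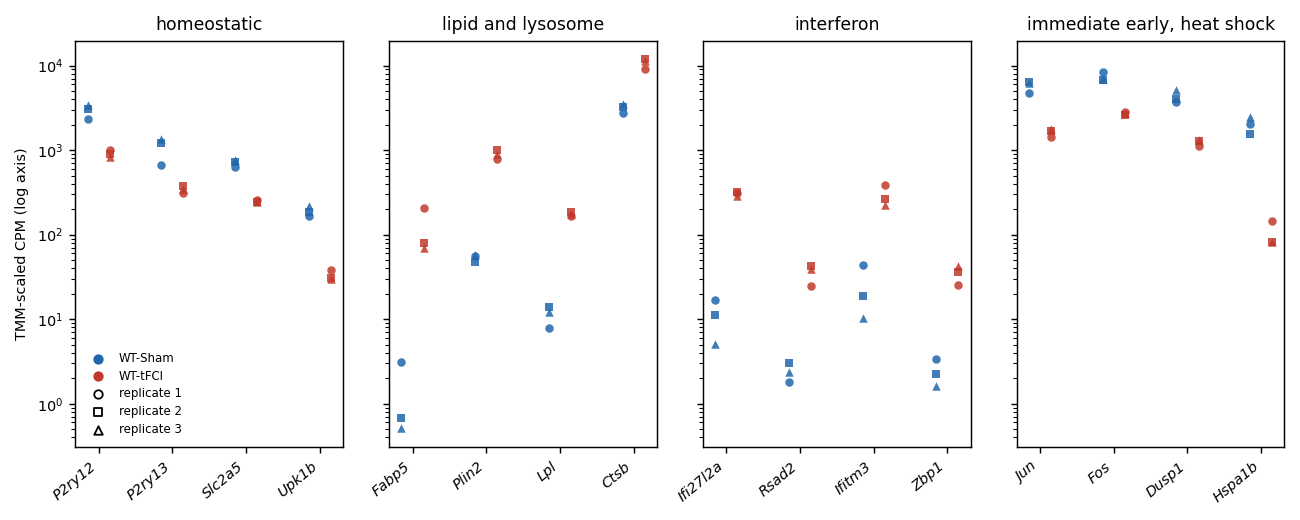
TMM-scaled CPM (log axis) of 16 genes in each of the 3 WT-Sham (blue) and 3 WT-tFCI (red) libraries, with a symbol for each replicate number. For every gene drawn the libraries of the groups do not overlap; homeostatic, immediate early and heat shock genes are lower after tFCI and lipid, lysosomal and interferon genes higher.

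Among inflammatory mediators other than chemokines, 21 of 43 genes of cytokines and NF-kB signalling were higher and 3 lower, or 1 lower without WT-tFCI replicate 1 (median 0.62, 0.47 within batch 1 and 0.68 within batch 2). Il1b (chromosome 2, 129364570 to 129371139), which encodes interleukin-1 beta, was at 50.7, 38.1 and 33.03 CPM in WT-Sham and 411, 531 and 491 CPM in WT-tFCI (log2 fold change 3.61, standard error 0.26, adjusted p = 1.28e-07). Genes that restrain interleukin-1 rose too. The receptor antagonist Il1rn went from 1.20, 1.01 and 1.33 to 15.9, 20.9 and 18.03 CPM (log2 fold change 3.94, standard error 0.31, adjusted p = 2.70e-07), and the decoy receptor Il1r2 from 1.08, 1.12 and 0.410 to 35.3, 4.96 and 5.24 CPM (log2 fold change 3.78, standard error 0.64, adjusted p = 3.52e-04). Il1r2 is also on the neutrophil list and was highest in WT-tFCI replicate 1. Tlr4, the receptor for bacterial lipopolysaccharide and for some molecules of dying cells, fell from 62.6, 60.9 and 64.4 to 29.7, 33.1 and 34.5 CPM (log2 fold change -0.96, standard error 0.24, adjusted p = 0.00625), and Tlr5, the receptor for flagellin, was among the 10 largest decreases (log2 fold change -2.53, standard error 0.58, adjusted p = 0.00339). Negative feedback genes of NF-kB that were abundant in both groups were not called: Nfkbia had 1725 ± 54.5 and 1927 ± 289 CPM and Tnfaip3 had 645 ± 176 and 682 ± 180.5 CPM (SD, n = 3 each).

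Of the eicosanoid genes, the inducible cyclooxygenase gene rose and the constitutive one fell. Cyclooxygenases turn arachidonic acid into prostaglandin H, which synthases convert further. In this list 7 of 23 genes were higher and 5 lower (median 0.22). Ptgs2, the inducible cyclooxygenase, rose from 4.45, 0.672 and 0.513 to 31.6, 20.1 and 23.6 CPM (log2 fold change 3.94, standard error 0.50, adjusted p = 2.62e-05), while Ptgs1, the constitutive enzyme, fell from 782, 1059 and 1058 to 509, 589 and 622 CPM (log2 fold change -0.74, standard error 0.18, adjusted p = 0.00437). Ptges, which makes prostaglandin E2, was at 0.240, 0 and 0.513 CPM in WT-Sham and 27.2, 9.23 and 7.19 CPM in WT-tFCI (log2 fold change 5.58, standard error 0.51, adjusted p = 1.22e-06). Ptger4, a receptor for prostaglandin E2, rose by 2.61 on the log2 scale (adjusted p = 5.34e-06), and Hpgd, which inactivates prostaglandins, fell from 265, 237 and 344 to 92.04, 121 and 124 CPM (log2 fold change -1.34, standard error 0.21, adjusted p = 2.15e-04). The leukotriene receptor gene Cysltr1 fell by 0.89 (adjusted p = 0.00823), and the synthase genes Tbxas1 and Ltc4s were not called (log2 fold changes -0.03 and -0.25).

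Genes of several steps of glycolysis rose. Of 24 genes 14 were higher and 1 lower, with a median log2 fold change of 0.89 (1.03 within batch 1 and 0.79 within batch 2). Pkm (chromosome 9, 59656368 to 59679375), which makes pyruvate, was at 296, 278 and 278 CPM in WT-Sham and 1341, 1196 and 1201 CPM in WT-tFCI (log2 fold change 2.13, standard error 0.13, adjusted p = 1.72e-08). Ldha, which reduces pyruvate to lactate, went from 294, 284 and 246 to 921, 887 and 838 CPM (log2 fold change 1.69, standard error 0.14, adjusted p = 4.11e-07), and Pgk1, phosphoglycerate kinase, from 34.9, 36.4 and 38.4 to 145, 122 and 110.3 CPM (log2 fold change 1.77, standard error 0.14, adjusted p = 2.09e-07). The WT-tFCI libraries of all 3 genes lay above all WT-Sham libraries. Hk2, an inducible hexokinase that starts the pathway, had 214 ± 57.9 and 156 ± 12.2 CPM (SD, n = 3 each) and did not reach the fold required (log2 fold change -0.44, adjusted p = 0.0324), and Pfkfb3, which sets the rate of phosphofructokinase, differed by 0.34 (adjusted p = 0.127). Aldoc was called higher (log2 fold change 2.05, standard error 0.35, adjusted p = 3.52e-04), but it is an astrocyte marker and its WT-tFCI libraries had 24.1, 11.9 and 4.63 CPM. In the pentose phosphate pathway 4 of 10 genes were higher, among them Tkt, transketolase, which rose by 0.69 on the log2 scale (adjusted p = 7.10e-04), while G6pdx, its first enzyme, differed by 0.14 (adjusted p = 0.473).

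In the list of hypoxia-induced genes, which HIF-1 is known to control, 12 of 23 were higher and 2 lower (median 0.76). Bhlhe40, a repressor of the HIF and clock networks, went from 2.16, 1.34 and 0.410 to 61.04, 18.6 and 17.5 CPM (log2 fold change 4.58, standard error 0.36, adjusted p = 2.89e-07), and Ndrg1, a stress-induced gene, from 1.56, 0.896 and 1.03 to 24.4, 8.31 and 7.80 CPM (log2 fold change 3.41, standard error 0.33, adjusted p = 1.80e-06). Vegfa, the angiogenic growth factor, had 2.16, 2.58 and 2.26 CPM in WT-Sham and 44.9, 8.77 and 9.503 CPM in WT-tFCI (log2 fold change 2.79, standard error 0.52, adjusted p = 7.09e-04), a log2 difference of 4.23 within batch 1 and 1.82 within batch 2. Bhlhe40, Ndrg1 and Vegfa were highest in WT-tFCI replicate 1, the library with the most endothelial and monocyte marker RNA, whose part in them was not tested. Other genes of the same list fell after tFCI. P4ha1, a collagen prolyl hydroxylase, fell from 299.8 ± 22.5 to 179.7 ± 16.2 CPM (log2 fold change -0.74, standard error 0.15, adjusted p = 0.00176), and Kdm3a, a histone demethylase, fell by 0.73 (adjusted p = 0.00115). Pdk1, which holds pyruvate out of mitochondria, differed by -0.35 (adjusted p = 0.0433), short of the fold required. With 10 counts required in each library, 6 were higher and 2 lower.

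The core of the hypoxia response element, ACGTG or GCGTG on either strand, was found in the promoter windows of 16 of 23 glycolysis genes (69.6%) and of 16 of 18 hypoxia genes (88.9%), against 43.8% of all windows. Other lists held it as often, among them the aminoacyl-tRNA synthetases (14 of 15), the circadian clock (13 of 14), ribosome biogenesis (30 of 37) and autophagy (20 of 25), and of the 14 glycolysis genes called higher that had a window 9 held it. It is short and frequent, and it overlaps the E-box CACGTG. The windows of Pgk1 and Ldha, both called higher as given above, are shown as examples, with each match in capitals.
Pgk1, chrX:106186850-106187149, plus strand: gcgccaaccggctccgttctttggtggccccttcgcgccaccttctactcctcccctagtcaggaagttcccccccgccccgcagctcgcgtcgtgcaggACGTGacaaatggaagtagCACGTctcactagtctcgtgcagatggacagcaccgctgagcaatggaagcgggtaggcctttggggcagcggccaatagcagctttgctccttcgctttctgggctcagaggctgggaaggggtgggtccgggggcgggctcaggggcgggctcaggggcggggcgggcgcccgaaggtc
Ldha, chr7:46845554-46845853, plus strand: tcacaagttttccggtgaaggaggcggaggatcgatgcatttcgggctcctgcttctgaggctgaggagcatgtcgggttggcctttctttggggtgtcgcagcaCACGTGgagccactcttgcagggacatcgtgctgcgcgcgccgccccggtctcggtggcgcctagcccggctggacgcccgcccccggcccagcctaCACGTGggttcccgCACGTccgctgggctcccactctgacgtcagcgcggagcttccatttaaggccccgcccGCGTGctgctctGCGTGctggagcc
Pgk1 holds 2 matches, which begin 150 and 131 bases before the start, and Ldha holds 7, some of them overlapping, of which the first begins 145 bases before the start.

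Most genes of oxidative phosphorylation rose. Of 76 tested nuclear genes for subunits of the respiratory chain and ATP synthase 60 were higher and 0 lower, with a median of 1.00 (0.76 within batch 1 and 1.12 within batch 2). Ndufa1, a small subunit of complex I, was at 87.9, 53.3 and 37.8 CPM in WT-Sham and 249.8, 178 and 153 CPM in WT-tFCI (log2 fold change 1.74, standard error 0.26, adjusted p = 1.17e-04), and Cox7b, a subunit of complex IV, went from 61.9, 35.1 and 26.3 to 146, 115 and 101 CPM (log2 fold change 1.61, standard error 0.23, adjusted p = 9.98e-05). Sdha, the catalytic subunit of complex II, had 110.2, 159.5 and 199 CPM in WT-Sham and 156, 191 and 187 CPM in WT-tFCI and was not called (log2 fold change 0.21). Of the 11 tested genes encoded in mitochondrial DNA 10 were higher (median 1.40), with mt-Co1 at 1240.5, 780.4 and 681 CPM in WT-Sham and 3552, 2602 and 2313 CPM in WT-tFCI (log2 fold change 1.67, standard error 0.28, adjusted p = 3.37e-04). Mitochondrial reads were 1.42, 0.646 and 0.487% of counts in WT-Sham and 3.40, 2.16 and 1.87% in WT-tFCI, with replicate 1 the highest of each group. Ribosomal RNA genes took 2.10, 0.549 and 0.362% of counts in WT-Sham and 3.04, 1.67 and 1.53% in WT-tFCI. They include the ribosomal RNA genes of mitochondrial DNA, which the mitochondrial share holds as well, so these shares overlap.

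Short genes had higher log2 fold changes than long ones across the whole comparison, as a description over genes. Protein-coding genes with a summed exon length of up to 1000 bases had a median of 0.67 on the log2 scale, with 40.1% of them called higher, whereas those between 3000 and 5000 bases had a median of 0.06 and 23.3% higher, and those over 8000 bases a median of -0.09. Within these classes the nuclear oxidative phosphorylation genes had medians of 1.19 (17 genes up to 1000 bases), 1.03 (29 genes between 1000 and 2000 bases) and 0.87 (15 genes between 3000 and 5000 bases), above the medians of all protein-coding genes of the same class. The 82 tested genes of cytosolic ribosomal proteins, a group added after the values were seen, had a median of 1.24, with 73 higher and 0 lower, and it was 0.70 within batch 1 and 1.55 within batch 2. The part of gene length, and of the overlapping shares of ribosomal RNA and mitochondrial reads that moved with surgery, in these results was not tested.

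**Figure D4:**
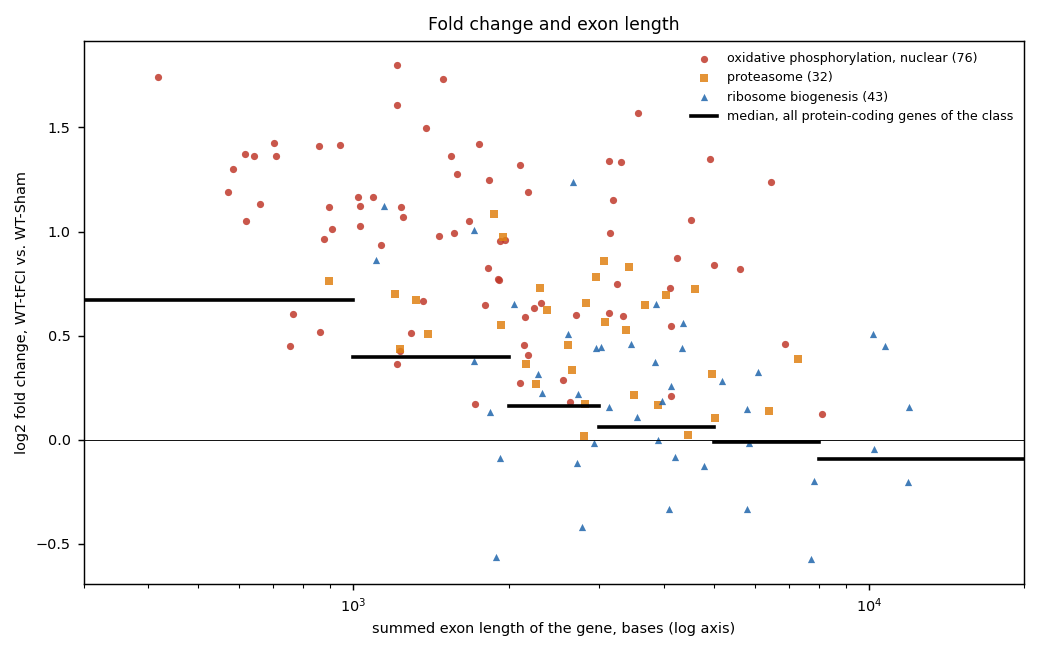
Log2 fold change in WT-tFCI vs. WT-Sham against the summed exon length (log axis) for nuclear oxidative phosphorylation genes (red), proteasome genes (orange) and ribosome biogenesis genes (blue), with the median of all protein-coding genes in each length class as black bars. The bars descend from 0.67 for the shortest class to -0.09 for the longest, and most red points lie above the bar of their class.

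The tricarboxylic acid cycle list was near the background, with 5 of 21 genes higher and 1 lower (median 0.37). Without WT-Sham replicate 1 or WT-tFCI replicate 3, 2 and 3 were higher. Mdh2 and Cs, malate dehydrogenase and citrate synthase, had log2 fold changes of 0.70 and 0.67 (adjusted p = 0.00119 and 7.88e-04). Idh2, an isocitrate dehydrogenase that makes NADPH, fell from 190.1 ± 14.4 to 125 ± 4.86 CPM (SD, n = 3 each, log2 fold change -0.60, standard error 0.15, adjusted p = 0.00586).

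Antioxidant genes rose in 18 of 30 cases with 0 lower (median 0.81, 0.68 within batch 1 and 0.80 within batch 2). These genes are known targets of the transcription factor NRF2, which oxidants free from degradation. Slc7a11 (chromosome 3, 49892526 to 50443614), which imports cystine for glutathione, was at 2.52, 1.79 and 2.26 CPM in WT-Sham and 76.2, 27.01 and 24.7 CPM in WT-tFCI (log2 fold change 4.15, standard error 0.33, adjusted p = 3.30e-07). Slc7a11 was highest in WT-tFCI replicate 1, the library with the most endothelial and monocyte marker RNA, whose part in it was not tested. Prdx1, a peroxiredoxin, went from 179.6, 159 and 158 to 641, 562 and 495 CPM (log2 fold change 1.77, standard error 0.19, adjusted p = 4.76e-06), Txn1, thioredoxin, from 39.3, 27.00 and 20.3 to 133, 98.9 and 80.4 CPM (log2 fold change 1.87, standard error 0.20, adjusted p = 4.61e-06), and Srxn1, which repairs peroxiredoxins, from 1.56, 3.14 and 5.85 to 26.7, 23.4 and 19.2 CPM (log2 fold change 2.74, standard error 0.32, adjusted p = 1.14e-05). The gene of NRF2 itself, Nfe2l2, had 316, 258 and 249.9 CPM in WT-Sham and 307, 429 and 408 CPM in WT-tFCI and was not called (log2 fold change 0.46). It was called higher in batch 2 alone (0.73, adjusted p = 0.00168), without WT-Sham replicate 1 (0.63, adjusted p = 0.0224) and without WT-tFCI replicate 1 (0.62, adjusted p = 0.0290). Sod1, the cytosolic superoxide dismutase, was not called (0.33). The core of the antioxidant response element, TGACNNNGC on either strand, was in 7 of 26 promoter windows of the list (26.9%), against 12.5% of all windows, and in 2 of the 15 windows of genes called higher. The share was as high in lists such as zinc transporters and metallothioneins (6 of 16) and growth factors (7 of 22).

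The ferritin genes rose and the iron export gene fell. In the whole list 5 of 24 genes were higher and 2 lower (median 0.31), near the background. The ferritin chains Fth1 and Ftl1 rose from 2280.1 ± 319 to 5532 ± 920.3 CPM and from 2196 ± 430.1 to 4568 ± 337 CPM (SD, n = 3 each, log2 fold changes 1.28 and 1.07, adjusted p = 1.86e-04 and 1.08e-04). Reads that also fit pseudogenes of the ferritins were not counted, so these levels are uncertain. Slc40a1, ferroportin, the only known iron exporter, fell from 110.2, 160.4 and 209 to 51.1, 73.4 and 67.98 CPM (log2 fold change -1.29, standard error 0.25, adjusted p = 9.63e-04). Slc39a14, which imports iron and zinc, rose from 15.96 ± 2.74 to 65.9 ± 10.3 CPM (log2 fold change 2.05, standard error 0.21, adjusted p = 3.23e-06). The metallothioneins, which bind zinc, rose: Mt1 went from 120.1, 73.8 and 56.1 to 395, 342 and 304 CPM (log2 fold change 2.10, standard error 0.30, adjusted p = 8.53e-05) and Mt2 from 2.16, 1.01 and 1.54 to 40.9, 31.6 and 27.2 CPM (log2 fold change 4.40, standard error 0.53, adjusted p = 1.63e-05). Mt3, a form known from neurons and astrocytes, had 66.1, 8.19 and 8.04 CPM in WT-tFCI, with replicate 1 far above the others (log2 fold change 2.87, standard error 0.47, adjusted p = 2.48e-04). In all, 5 of 19 genes of zinc handling were higher and 1 lower, near the background.

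Among genes of amino acid synthesis and transport under ATF4, some rose and some stress genes fell. ATF4 is made when initiation of translation is held back and turns on amino acid synthesis and transport. Of 30 such genes 15 were higher and 3 lower (median 0.73, 0.78 within batch 1 and 0.48 within batch 2). Psat1, an enzyme of serine synthesis, was at 14.5, 21.2 and 16.2 CPM in WT-Sham and 135, 193 and 179.7 CPM in WT-tFCI (log2 fold change 3.28, standard error 0.19, adjusted p = 1.22e-08). Mthfd2, of mitochondrial folate metabolism, rose from 7.81, 11.7 and 10.7 to 29.1, 29.1 and 23.6 CPM (log2 fold change 1.46, standard error 0.18, adjusted p = 1.97e-05), and Slc1a5, a glutamine transporter, from 7.68 ± 0.321 to 22.9 ± 2.58 CPM (log2 fold change 1.57, standard error 0.17, adjusted p = 8.18e-06). The stress genes Ddit3, which encodes CHOP, and Ppp1r15a, which restores translation, fell by 0.72 and 0.85 (adjusted p = 6.34e-04 and 0.00136), and Atf3 had 2229 ± 91.2 and 1843 ± 239 CPM and was not called. In the unfolded protein response list 8 of 27 genes were higher and 1 lower (median 0.42). Calr, calreticulin, rose from 798 ± 57.8 to 1394 ± 70.8 CPM (log2 fold change 0.80, standard error 0.15, adjusted p = 7.76e-04), while Hspa5, the chaperone BiP, had 1730.0, 2181 and 2608 CPM in WT-Sham and 1881, 1797 and 1678 CPM in WT-tFCI and was not called. Without WT-tFCI replicate 1, 5 of the list were higher and 0 lower.

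Most aminoacyl-tRNA synthetase and ribosome biogenesis genes were not called. Of 22 aminoacyl-tRNA synthetases 3 were higher and 0 lower (median 0.34), or 5 higher without WT-Sham replicate 1, and of 43 genes of ribosome biogenesis 6 were higher and 0 lower (median 0.22), a smaller share than in the background. Npm1, nucleophosmin, was among those that rose, from 78.9 ± 16.9 to 186 ± 31.9 CPM (SD, n = 3 each, log2 fold change 1.24, standard error 0.14, adjusted p = 8.86e-06), while Ncl, nucleolin, was short of the fold required at 0.51 (adjusted p = 0.00351). Of 32 proteasome subunits 14 were higher and 0 lower, with a median of 0.54, and 8 were higher without WT-tFCI replicate 2. Psmb6, a catalytic subunit, rose from 187, 153 and 139.7 to 345, 371 and 299 CPM (log2 fold change 1.09, standard error 0.14, adjusted p = 3.34e-05). Proteasome genes had medians of 0.67 (7 genes between 1000 and 2000 bases), 0.41 (10 genes between 2000 and 3000 bases) and 0.56 (11 genes between 3000 and 5000 bases), against 0.40, 0.16 and 0.06 for all protein-coding genes of these lengths.

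Immediate early and heat shock genes fell in most cases, with the lowest median of the 40 lists. Immediate early genes are transcribed within minutes of a stimulus, and heat shock genes when proteins misfold. Of 29 genes 19 were lower and 2 higher, with a median of -1.07 (-0.98 within batch 1 and -1.04 within batch 2). Jun (chromosome 4, 95049034 to 95052222), a subunit of AP-1, was at 4715, 6440.1 and 6281 CPM in WT-Sham and 1424, 1677 and 1798 CPM in WT-tFCI (log2 fold change -1.82, standard error 0.16, adjusted p = 7.18e-07), and Fos, its partner, went from 8486, 6833 and 6991 to 2832, 2589.7 and 2758 CPM (log2 fold change -1.44, standard error 0.16, adjusted p = 7.81e-06). Dusp1, a phosphatase that ends MAP kinase signalling, went from 3666, 4060.3 and 5149 to 1113, 1276 and 1319 CPM (log2 fold change -1.79, standard error 0.18, adjusted p = 3.97e-06). Hspa1b and Hspa1a, which encode inducible HSP70, showed the largest and the third largest decrease by the naming rule, Hspa1b from 2032, 1562 and 2476 to 144, 82.3 and 82.7 CPM (log2 fold change -4.34, standard error 0.22, adjusted p = 4.62e-09) and Hspa1a from 1631, 1102 and 1630.0 to 178, 90.1 and 108 CPM (log2 fold change -3.56, standard error 0.23, adjusted p = 3.58e-08). These 2 genes are near-identical copies, and reads that fit both were not counted, so their levels are uncertain, but both changed the same way. Nr4a1, an orphan nuclear receptor of the same class of genes, rose instead, from 185, 144 and 121 to 528, 444 and 548 CPM (log2 fold change 1.79, standard error 0.21, adjusted p = 1.53e-05), as did Ier3, by 0.72 (adjusted p = 0.00421). The sorted cells of both groups went through dissociation and sorting, and how long that took is not given in the sources used here.

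Transcription factors of the myeloid lineage moved in both directions, with 19 of 46 lower and 13 higher (median -0.51). Beside Jun and Fos, Jund fell from 1782, 1842 and 1854 to 510.2, 644 and 675 CPM (log2 fold change -1.59, standard error 0.14, adjusted p = 1.10e-06) and Batf3, known from dendritic cells, fell by 1.39 (adjusted p = 0.00132). Id2, an inhibitor of E proteins, rose from 385 ± 53.2 to 997 ± 154 CPM (SD, n = 3 each, log2 fold change 1.37, standard error 0.16, adjusted p = 1.70e-05), and Nfil3 rose by 1.89 (adjusted p = 2.50e-06). In the circadian clock list 2 of 17 were higher and 3 lower, or 5 lower without WT-Sham replicate 1 and 1 lower without WT-Sham replicate 2, WT-tFCI replicate 2 or WT-tFCI replicate 3, the last of which left 1 higher. Tef, an output factor of the clock, fell from 82.6 ± 14.9 to 37.6 ± 1.22 CPM (log2 fold change -1.11, standard error 0.18, adjusted p = 1.96e-04), while Per1 had 198, 140.1 and 121 CPM in WT-Sham and 126, 132 and 146 CPM in WT-tFCI and was not called.

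Genes of the actin skeleton and motility rose in 30 of 49 cases and fell in 3 (median 0.85, 0.90 within batch 1 and 0.90 within batch 2). Vim (chromosome 2, 13573927 to 13582826), the intermediate filament vimentin, was at 6.49, 4.15 and 4.82 CPM in WT-Sham and 299, 134 and 128 CPM in WT-tFCI (log2 fold change 5.10, standard error 0.28, adjusted p = 9.01e-09). Anxa2, which links membranes to actin, went from 8.53, 2.58 and 2.15 to 309, 156 and 143 CPM (log2 fold change 5.61, standard error 0.24, adjusted p = 1.11e-09), and S100a6, a calcium-binding protein, from 2.003 ± 2.75 to 37.7 ± 40.5 CPM (SD, n = 3 each, log2 fold change 4.24, standard error 0.43, adjusted p = 3.23e-06). In all 3, WT-tFCI replicate 1 was above the other libraries. Fscn1, which bundles actin in filopodia and marks resting microglia among brain cells, fell from 271, 237 and 241 to 134, 82.8 and 99.1 CPM (log2 fold change -1.27, standard error 0.32, adjusted p = 0.00569), and Evl, an Ena/VASP protein, fell by 0.68 (adjusted p = 5.98e-04). The abundant actin regulators Coro1a and Lcp1 were not called (log2 fold changes 0.23 and 0.19). Without WT-tFCI replicate 1, 27 of the list were higher and 2 lower.

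Many genes of secreted growth factors and of matrix proteases and their inhibitors rose from low levels. Of 33 growth factors and their binding proteins 22 were higher and 0 lower, with a median of 1.67, or 1.35 with the 5 members at or under 3 counts per library at their bounds. Csf1 (chromosome 3, 107741048 to 107760469), a ligand of the receptor on which microglia depend, was at 27.05, 28.9 and 29.3 CPM in WT-Sham and 182, 249.7 and 276 CPM in WT-tFCI (log2 fold change 3.03, standard error 0.20, adjusted p = 5.16e-08). Igf1, insulin-like growth factor 1, went from 3.49, 4.15 and 2.67 to 30.9, 35.5 and 38.3 CPM (log2 fold change 3.34, standard error 0.27, adjusted p = 2.90e-07), and Angptl4, which inhibits lipoprotein lipase, from 0.601, 1.79 and 0.718 to 40.3, 22.6 and 27.3 CPM (log2 fold change 4.79, standard error 0.37, adjusted p = 2.45e-07). Csf1 and Igf1 were as high in the libraries of batch 2 as in replicate 1, whereas Igfbp6 was at 62.7, 23.4 and 20.6 CPM in WT-tFCI (log2 fold change 5.09, standard error 0.25, adjusted p = 3.93e-09). Tgfb1 differed by -0.23 (adjusted p = 0.184).

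Of 27 matrix proteases and inhibitors 15 were higher and 1 lower, with a median of 1.59, or 0.94 with 4 members at their bounds. Timp3, another inhibitor of matrix proteases, had 0.120, 0.784 and 0.410 CPM in WT-Sham and 47.6, 11.4 and 10.6 CPM in WT-tFCI (log2 fold change 5.41, standard error 0.66, adjusted p = 1.96e-05). The member with the most reads went the other way. Cst3 (chromosome 2, 148871722 to 148875692), cystatin C, an inhibitor of cysteine cathepsins, was at 39182, 25983 and 23233 CPM in WT-Sham and 12812, 11379 and 9914 CPM in WT-tFCI (log2 fold change -1.36, standard error 0.18, adjusted p = 4.67e-05). Without WT-tFCI replicate 1, 11 matrix genes and 21 growth factors were higher, and where 10 counts were required in each library, a filter that tests fewer genes, 7 and 11. The endothelial and mural markers given above rose with these genes, and their part was not tested.

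Tgfbr1, Smad3 and Smad1 of TGF-beta signalling fell, while Tgfbi rose. In the TGF-beta list 8 of 30 genes were higher and 7 lower (median -0.20). Tgfbr1 (chromosome 4, 47353222 to 47414931), the type 1 receptor, was at 1011, 834 and 932 CPM in WT-Sham and 402, 401 and 379 CPM in WT-tFCI (log2 fold change -1.24, standard error 0.20, adjusted p = 2.11e-04), and Smad3, which carries its signal to the nucleus, fell from 86.2 ± 4.34 to 44.1 ± 3.90 CPM (SD, n = 3 each, log2 fold change -0.96, standard error 0.15, adjusted p = 1.61e-04). Smad1, of the bone morphogenetic protein branch, fell by 0.94 (adjusted p = 2.62e-04). Tgfbi, a secreted target of the pathway, rose from 47.5, 65.3 and 65.1 to 315, 232 and 268 CPM (log2 fold change 2.18, standard error 0.29, adjusted p = 4.74e-05).

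Among purine receptors and ectonucleotidases 11 of 24 genes were higher and 6 lower (median 0.76). Every member called lower was at 56.6 CPM or more in WT-Sham, the level of Adora3, and every member called higher was at 5.75 CPM or less there, the level of Adk. This split is partly set by the low-count filter. A member near 0 counts in WT-Sham passes it only through another group and can hardly be called lower. With only the 6 WT libraries 6 were higher and 6 lower. Beside P2ry12 and P2ry13, Entpd1, the ectonucleotidase CD39 that removes ATP and ADP, fell from 571, 564 and 599 to 245, 230.5 and 239 CPM (log2 fold change -1.28, standard error 0.16, adjusted p = 2.88e-05), and Adora3, an adenosine receptor, fell by 0.93 (adjusted p = 0.00295). P2rx4 and P2ry6, an ATP-gated channel and a UDP receptor, were not called (log2 fold changes 0.44 and -0.21). Adk, adenosine kinase, rose from 5.75 ± 1.65 to 17.1 ± 2.45 CPM (SD, n = 3 each, log2 fold change 1.58, standard error 0.25, adjusted p = 2.09e-04). Where 10 counts were required in each library 3 were higher and 6 lower and the median turned to -0.42. In the channel list 4 of 20 were higher and 2 lower, shares near the background. Without WT-Sham replicate 2 or 3, or WT-tFCI replicate 1 or 3, 2 were higher, and 0 were lower without WT-Sham replicate 1 and 1 without WT-tFCI replicate 1 or 2. Clic4, a chloride channel protein, rose from 10.2, 11.4 and 14.5 to 103, 82.4 and 88.2 CPM (log2 fold change 2.91, standard error 0.18, adjusted p = 2.83e-08), and the proton channel gene Hvcn1 was not called (log2 fold change -0.42).

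In arginine and polyamine metabolism 6 of 17 tested genes were higher and 0 lower (median 0.50). Arg1, arginase 1, a marker of alternatively activated macrophages, was at 1.32, 3.14 and 1.64 CPM in WT-Sham and 47.5, 16.04 and 17.7 CPM in WT-tFCI (log2 fold change 3.59, standard error 0.43, adjusted p = 1.61e-05), with a log2 difference of 4.93 within batch 1 and 2.76 within batch 2. Nos2, which competes for the same substrate, did not pass the filter on low counts. Sat1, which acetylates polyamines, had 865 ± 93.3 and 921 ± 148 CPM (SD, n = 3 each) and was not called.

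Finally, the same lists were set beside the response of miKO microglia, miKO-tFCI vs. miKO-Sham, which shares no library with the WT comparison. Over all genes the response differed between genotypes for 3.82% of the genes tested (interaction in edgeR, adjusted p under 0.05), with 2.57% lower and 1.25% higher in miKO. Of the injury-associated genes 19 of 39 differed, 19 with a lower and 0 with a higher response in miKO, and their median was 2.73 in WT and 1.25 in miKO. Of the cytokine and NF-kB genes 15 of 43 differed (medians 0.62 and -0.29), of the lysosomal genes 7 of 50 (medians 0.46 and -0.02) and of the phagocytic receptors 8 of 43 (medians 0.62 and 0.20). Homeostatic genes differed in 3 of 40 cases (medians -0.76 and -1.06), glycolysis genes in 1 of 24 (medians 0.89 and 0.92) and nuclear oxidative phosphorylation genes in 0 of 76 (medians 1.00 and 0.63). An interaction counts a different level in Sham as much as a different level after tFCI. Apoe, for one, had 47467 CPM in miKO-Sham and 25646 CPM in miKO-tFCI as means, against 1129 and 5057 CPM in the WT groups, an interaction of -3.04 on the log2 scale (standard error 0.67, adjusted p = 0.0199).

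**Figure D5:**
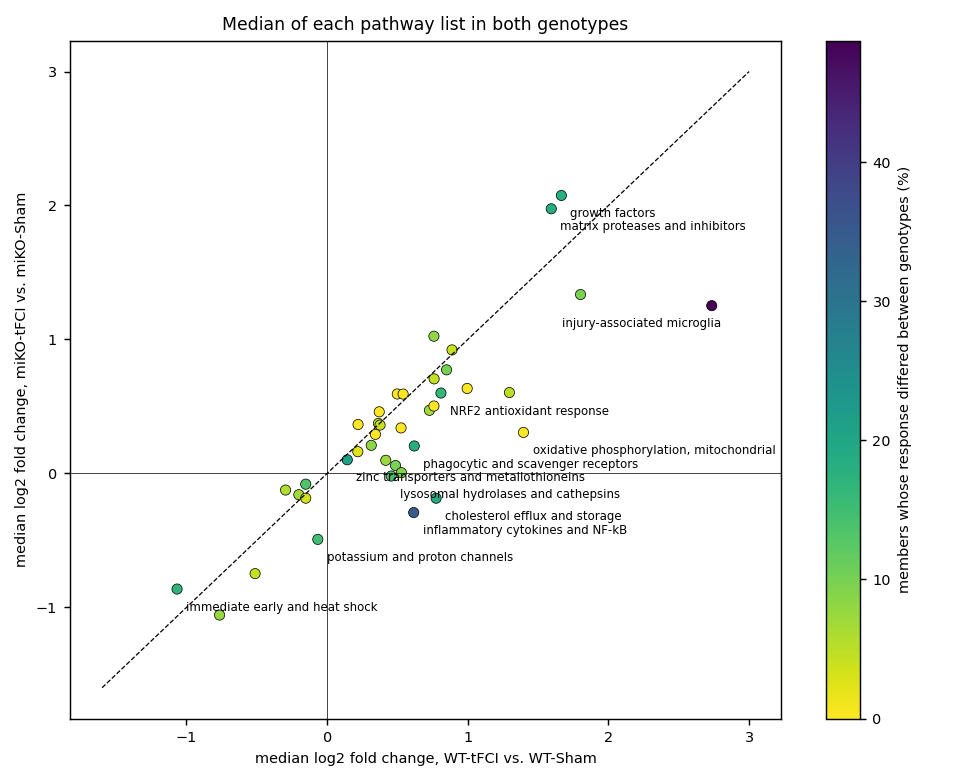
Median log2 fold change of each of the 40 lists after tFCI in WT (horizontal axis) and in miKO (vertical axis), coloured by the percentage of members whose response differed between genotypes in edgeR's interaction test. Lists lie on both sides of the dashed line of equal medians, and the injury-associated list lies below it at 2.73 and 1.25.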

How the data were processed

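RNA was measured in 12 libraries of sorted microglia, 3 for each of WT-Sham, WT-tFCI, miKO-Sham and miKO-tFCI. The authors deposited raw read counts per gene for each library, with summary rows of unassigned reads, and no other columns. The submitters' processing notes name FastQC 0.11.9, Trim Galore, HISAT2 2.2.1, SAMtools and HTSeq 1.99.2, and the builds mm10 and GRCm38.p6. Between 30.7 and 35.1% of the read pairs of a WT library were counted on genes, and the summary rows were left out of totals and tests. Reads on several copies of a gene were not counted, which lowers near-identical genes.

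Of 55401 genes in the files, 55141 were matched by identifier to the GENCODE M21 annotation of GRCm38, which gave names, coordinates and lengths. Counts of all 12 libraries were fitted in edgeR 4.0.16 (R 4.3.3, limma 3.58.1) with TMM scaling, filterByExpr by group, a term for sequencing batch and the quasi-likelihood test, and 16451 genes were tested. Fold changes are edgeR's, log2 CPM for plots used a prior count of 2, and where members at or under 3 counts throughout a group, set at their bound, changed the median of a pathway list, that median is given too. The spread between replicates had a common biological coefficient of variation of 0.1985. No pair of replicates held the same counts (chi-square over degrees of freedom of 3.65 or more). In a test on simulated data for WT-tFCI vs. WT-Sham, 46 of 96 genes altered by 1 and 71 of 99 altered by 2 on the log2 scale were recovered, with 10 false calls among 15979 genes. The simulation altered only these few genes, gave every other gene the same mean in all groups and held no batch effect. In the data 32.6% of the genes tested were called, so these rates do not carry over to them.

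Named genes were the 10 largest increases and decreases among called genes with separate groups on log2 CPM after adjustment for batch (57.5% of the genes tested were separate), with at least 10 CPM in the higher group, and in each list up to 4 called members in each direction and up to 2 abundant members not called. Cell division genes and chemokines were left out. Not every gene the rule named is described. The lists and members were chosen with earlier results of these data known. Lists are described by counts and medians and have no test of their own.

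Alternatives were DESeq2 1.42.0 with its size factors, RLE scaling in edgeR, library totals only, other filters on low counts, no batch term, batch 2 only, the 6 WT libraries only, a block for replicate number, adjusted p alone, genes without an overlap on the other strand, and each WT library left out in turn.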

Additional observations from a re-analysis of the deposited data

Results flagged for a closer look

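The response to tFCI differed between WT and miKO for 25 of 181 genes named above that were examined. This was by edgeR's interaction test with Benjamini-Hochberg adjustment over all genes tested, of which 3.82% differed. Values are miKO minus WT on the log2 scale, so that a negative value is a lower log2 change in miKO, be it a smaller increase, a larger decrease or a fall in place of a rise. Chosen for a different response, these genes are given as values only, and a different level in Sham counts in them as much as one after tFCI. Many were also named for a large change in WT, and the interaction subtracts that same change. Genes named for a rise in WT thus lean to negative values, and genes named for a fall to positive ones.

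Among inflammatory genes, Il1b had an interaction of -3.68 (adjusted p = 6.00e-05), with mean levels of 327 CPM in miKO-Sham and 326 CPM in miKO-tFCI against 40.6 and 478 CPM in the WT groups. Nfkbia had -1.01 and Ier3 -1.16 (adjusted p = 0.00918 and 0.0146). Of the interferon and presentation genes, Ifi27l2a had -2.56 and Ifi30 -1.90 (adjusted p = 5.53e-04 and 0.00357). Of receptors, Cd300lf had -2.98, Fcgr4 -2.13 and Trem2 -1.01 (adjusted p = 0.00119, 0.00283 and 0.0194). Trem2 was not called in WT and was at 2294 CPM in miKO-Sham and 909 CPM in miKO-tFCI.

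Of lipid genes, Apoe had -3.04, Plin2 -2.16, Scarb1 -1.57 and Cpt1a -0.76 (adjusted p = 0.0199, 0.0124, 0.00144 and 0.0278). Plin2 was at 772 CPM in miKO-Sham and 2904 CPM in miKO-tFCI against 53.9 and 898 CPM in the WT groups. Of lysosomal and autophagy genes, Ctsb had -1.05 and Sqstm1 -0.99 (adjusted p = 0.0478 and 0.0223). The metallothioneins Mt1 and Mt2 had -2.17 and -4.54 (adjusted p = 0.00827 and 0.00137), and Mt2 was at 114 CPM in miKO-Sham against 1.57 CPM in WT-Sham. The NRF2 gene Nfe2l2 had -1.16, the serine synthesis gene Psat1 -2.49 and the glutamine transporter gene Slc1a5 -1.18 (adjusted p = 0.0189, 8.81e-05 and 0.0124). Of secreted factors, Csf1 had -1.25 and Cd5l -2.69 (adjusted p = 0.0179 and 0.0134). The receptor gene Csf3r had -0.87 (adjusted p = 0.0115).

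The interaction was positive for Hspa1b, Upk1b and Gprasp2. Hspa1b had 1.59 (adjusted p = 0.00446), with 525 CPM in miKO-Sham against 2023 CPM in WT-Sham. Upk1b had 2.48 (adjusted p = 0.0269) and was at 1.10 CPM in miKO-Sham and 1.06 CPM in miKO-tFCI against 190.1 and 32.8 CPM in the WT groups. Gprasp2 had 3.16 (adjusted p = 0.00905) and mean levels of 1.43 and 2.71 CPM in miKO against 16.2 and 3.42 CPM in WT.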

How the results depend on the processing

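The 5365 genes called in WT-tFCI vs. WT-Sham stayed within 1.5 times that count under all alternatives, from 3701 with at least 10 counts in every library to 6402 by adjusted p alone. Leaving out 1 WT library gave 4542 to 5042. Among 3701 genes 53.0% were higher, against 64.1% as reported. DESeq2 called 5457, of which 5310 were shared. For the response by genotype, 629 genes were called, 1004 by DESeq2 (625 shared) and 303 without the batch term, and the cause was not tested. Same-numbered libraries of WT-Sham and WT-tFCI had deviations correlated at 0.143, 0.0237 and 0.11, and 1 of these is near 0, so the numbers were not taken as pairs beyond the sequencing batch that same-numbered libraries share. Each library correlated best with its own number except replicate 2 of each group. With a replicate block 5325 genes were called, and 612 for the response by genotype. The median of purine receptors and ectonucleotidases turned from 0.76 to -0.42 with at least 10 counts in every library and -0.27 with only the 6 WT libraries, which both test fewer genes. With only the 6 WT libraries the median of growth factors was 1.24 against 1.67, and that of matrix proteases and inhibitors 0.92 against 1.59. With 10 counts required in each library fewer genes of fatty acid uptake (6 against 11), cytokines (13 against 21), TGF-beta signalling (3 against 8) and prostaglandin synthesis (2 against 7) were higher. Of the 40 lists, 180 medians under an alternative moved by more than the SD of the list between the WT-tFCI libraries, 498 did not, and the 2 others are those of the purine list. Medians near 0 also changed sign, those of MHC class II without the batch term (-0.15 to 0.16), prostaglandin synthesis with at least 10 counts in every library (0.22 to -0.094), channels with that filter (-0.07 to 0.0083) and without genes that overlap another on the opposite strand (0.069), and zinc handling without WT-Sham replicate 1 (0.14 to -0.0022). In glycolysis, fatty acid oxidation, interferon, class I, phagocytic, NRF2, zinc, unfolded protein, synthetase and growth factor lists, with 0 to 2 members lower, that number moved by 1 in some fits without 1 library, and in ribosome biogenesis it went from 0 to as many as 2, without WT-Sham replicate 1. Of the genes named, Mertk lost its call without the batch term (-0.75, adjusted p = 0.0540) and as given above, and 7 gained one under some alternative. The depth limits genes near 3 counts per library, and 3 pools a group limit the rest.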
